A study of Homo sapiens with 48 samples.

Results

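The heat shock chaperones and their partners were taken as every gene whose symbol begins with HSPA, HSPH, HSP90A, HSPB, HSPD, HSPE or DNAJ, together with the BAG genes numbered 1 to 6, leaving out the endoplasmic reticulum (ER) genes HSPA5 and DNAJB9. This gave 62 of 11145 genes with ribosome-protected fragments (RPFs, the mRNA pieces that translating ribosomes shield from nuclease) and 64 of 11947 genes in total cytoplasmic RNA. Of the 65 genes found in either table, 61 were in both, HSPA1L was in the RPF table alone, and DNAJC27, DNAJC28 and HSPA1B were in the total RNA table alone. By their known location, 32 of the 62 genes with RPFs act in the cytosol and 9 in mitochondria. The symbols also took in 11 ER proteins, 4 nuclear ones and 6 others such as HSPB11, an intraflagellar transport protein, so the whole set is wider than the cytosolic and mitochondrial machinery. Members such as HSPA6 and HSPB8 were not in the tables used here.

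The cells were SW480, a colorectal adenocarcinoma line, carrying a doxycycline (DOX)-inducible, lentivirally delivered shRNA. The 3 lines were shCTRL (non-targeting), shEIF2B1 (against the mRNA of eIF2Bα) and shEIF2B4 (against that of eIF2Bδ). The 6 groups were shCTRL -DOX, shCTRL +DOX, shEIF2B1 -DOX, shEIF2B1 +DOX, shEIF2B4 -DOX and shEIF2B4 +DOX, where -DOX received DMSO and +DOX received 1 µg/ml of the drug, each for 5 days. Each group had 4 replicates grown in different weeks, with 1 RPF and 1 total RNA library per lysate, 48 libraries in all. Every knockdown was 1 shRNA construct in transduced cells, so a property of a line and a property of its shRNA cannot be told apart. eIF2B is the exchange factor that recharges eIF2 with GTP for each round of translation initiation.

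Values are the authors' regularized log2 values, so a difference of 1 is a doubling of the regularized value. For genes with few reads it need not be a doubling of the reads. Library medians spanned 6.84 to 7.12 for RPFs and 7.85 to 7.92 for total RNA. The read depth is unknown from these values. EIF2B1 total RNA lay between 7.10 and 7.68 in shEIF2B1 +DOX and between 8.19 and 8.38 in shEIF2B1 -DOX, and EIF2B4 lay between 6.47 and 6.68 in shEIF2B4 +DOX and between 6.88 and 7.42 in shEIF2B4 -DOX. Of 11 colorectal epithelial markers 7 were listed in both tables, among them EPCAM, CDH1 and CDX2, and of 9 markers of leukocytes, endothelium, fibroblasts and hepatocytes CD68 alone was listed. Replicate 1 stood apart in several groups. In RPFs, it was the lowest of the 4 replicates for 61.3% of the members in shEIF2B4 -DOX, against 42.9% of all genes, for 59.7% against 40.1% in shEIF2B4 +DOX, for 40.3% to 45.2% against 25.9% to 30.8% in both shEIF2B1 groups and shCTRL -DOX, but for 29% against 28.5% in shCTRL +DOX. In total RNA the share ranged from 10.9% (against 21.9%, shCTRL +DOX) to 40.6% (against 27%, shEIF2B4 -DOX). Results that rest on it are given with and without it.

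Hsp70 proteins bind exposed hydrophobic stretches of unfolded chains and release them in a cycle driven by ATP. J-domain proteins, encoded by the DNAJ genes, deliver clients and trigger ATP hydrolysis, and nucleotide exchange factors (the Hsp110 family, most BAG proteins and HSPBP1) reset the cycle. Hsp90 takes over clients such as kinases and steroid receptors at a later stage, small heat shock proteins hold unfolded chains, and Hsp60 (HSPD1) with its lid Hsp10 (HSPE1) encloses proteins in the mitochondrial matrix. Many of these genes are switched on by heat shock factor 1, which binds inverted repeats of GAA, the heat shock element.

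The promoters of several members show that element in full. The letters GAANNTTC followed by any 2 bases and a further GAA, a run of 3 alternating units, were searched on both strands of the RefSeq promoters (GRCh38.p14, from 250 bases before to 50 bases after each start). A gene was counted if any of its listed promoters held them. They were found in 6 of the 59 members with a promoter entry (10.2%) and in 0.608% of all 27305 genes with one. The 6 were DNAJA1, DNAJB6, HSP90AA1, HSP90AB1, HSPA8 and HSPD1. One stretch of each is printed 5′ to 3′ along the gene's strand, with the element in capitals, because 5 of these 6 genes are among those with lower RPFs after shEIF2B1 described further on.

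HSPA8: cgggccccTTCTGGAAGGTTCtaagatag
HSP90AA1: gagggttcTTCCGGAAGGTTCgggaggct
HSP90AB1: tgagattgTTCTGGAAGCTTCtggattct
DNAJA1: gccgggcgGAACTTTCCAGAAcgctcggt
DNAJB6: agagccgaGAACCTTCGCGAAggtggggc
HSPD1: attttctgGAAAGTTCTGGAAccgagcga

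The HSPA8 stretch lies at chr11:123062171-123062199 on the minus strand, with its element at position -55 from the listed start, and a second element lies at position -230. The HSP90AA1 stretch is chr14:102087112-102087140 (minus strand) and that of HSP90AB1 is chr6:44247823-44247851 (plus strand). A second HSP90AB1 element lies at chr6:44247770-44247798, outside the printed stretch. The DNAJA1 stretch is chr9:33025268-33025296, with the element at position 3, that of DNAJB6 is chr7:157336865-157336893, both on the plus strand, and that of HSPD1 is chr2:197500060-197500088 on the minus strand. Genes such as HSP90AA1 and HSP90AB1 have several listed starts, so each distance refers to 1 of them. The pair GAANNTTC alone, which every longer element contains, was in 14 of 59 members (23.7%) and in 8.21% of all genes with a promoter entry. Of the 14, 13 encode cytosolic proteins, HSPA1A, HSPA1B, HSPB1 and DNAJB1 among them. A match describes these letters in this window and shows no binding.

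The coding sequences (CDS) of the members differ widely in their codons. The first 10 codons of 6 members are printed, from the GENCODE v29 transcript that matches the authors' choice, with the third base of each codon in capitals, to show what the share of codons ending in G or C (GC3, taken over the whole CDS further on) measures.

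HSPA8: atGtcCaaGggAccTgcAgtTggTatTgaT
HSPA1A: atGgcCaaAgcCgcGgcGatCggCatCgaC
DNAJA1: atGgtGaaAgaAacAacTtaCtaCgaTgtT
DNAJB6: atGgtGgaTtaCtaTgaAgtTctAggCgtG
DNAJC30: atGgcAgcCatGcgCtgGcgAtgGtgGcaG
HSPB1: atGacCgaGcgCcgCgtCccCttCtcGctC

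Of these 10 codons, 3 end in G or C in HSPA8, the constitutive Hsp70, and 9 in its stress-inducible relative HSPA1A. The count is 4 in DNAJA1, 5 in DNAJB6, 8 in DNAJC30 and 10 in HSPB1. These starts illustrate codon endings and do not stand for the responses, since in members called lower such as HSPA4 and HSPH1 the counts are 9 and 7. Over the whole CDS, GC3 was 46.0% for HSPA8 and 92.2% for HSPA1A, which code for close relatives.

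The levels in uninduced control cells set the scale. Per kilobase of CDS, the log2 RPF level in shCTRL -DOX was 14.2 ± 0.28 (SD, n = 4) for HSPB1 (Hsp27, a small heat shock protein), 12.4 ± 0.65 for HSPA8, 12.1 ± 0.61 for HSPE1, 12.0 ± 0.72 for HSP90AA1, 11.7 ± 0.47 for HSPD1 and 11.4 ± 0.51 for HSP90AB1. Apart from HSPB1, these neighbours did not differ beyond their spread. HSPA9, the mitochondrial Hsp70, came second at 13.7 ± 0.35, but its listed transcript has only 126 coding bases in GENCODE v29, which makes its level per length unreliable. In total RNA the log2 level was taken per kilobase of the whole transcript, so it is not on the scale of the RPF level. It was 13.1 for HSPA8, 12.5 for HSP90AA1, 12.5 for HSPE1, 11.9 for HSPB1 and 11.5 for HSP90AB1.

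The response to a knockdown was the change from -DOX to +DOX in that line minus the change in shCTRL, with the week as a block, tested by limma across all genes and called at an adjusted p (Benjamini-Hochberg) under 0.1. After shEIF2B1, 17 of the 62 members had lower RPFs (27.4%) and 4 had higher RPFs (6.45%). Of all genes 27.3% were called, 15.3% lower and 12% higher. The median log2 RPF response was -0.13 over the members and -0.01 over all genes, and 71% of the members lay below 0, against 51.4% of all genes. The 41 members not called had responses between -0.53 (HSPD1) and 0.19 (HSPA1L). Without replicate 1, 14 members were lower and 1 was higher, against 8.28% and 5.7% of all genes. The calls need the pairing by week, since a fit without the block called 0 members (limma, 7 at an unadjusted p under 0.05), with 0.449% of all genes called. In bulk lysates, fewer cells with an mRNA and less of it per cell cannot be told apart.

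Most of the members called lower, 11 of 17, act in the cytosol, as do 32 of the 62 members. All 3 Hsp110 genes (HSPH1, HSPA4, HSPA4L) and both Hsp90 genes were lower, as were 2 of 8 Hsp70 genes, 2 of 4 DNAJA genes, 2 of 8 DNAJB genes and 3 of 24 DNAJC genes. Of the 32 cytosolic members 11 were lower (34.4%) and 0 higher, and of the 9 mitochondrial ones 3 were lower (33.3%) and 2 higher. Of all genes 15.3% were lower and 12% higher. Of the 11 ER members 1 was lower (DNAJB14 of the ER membrane, -0.64, adjusted p = 0.011). DNAJB14 changed within shEIF2B1 by -0.35, -0.38, 0.24 and -0.26 in weeks 1 to 4 and within shCTRL by 0.15, 0.42, 0.61 and 0.63, so most of its response came from the higher values of shCTRL on DOX. HSPB11, which is no chaperone despite its symbol, was lower too (-0.71, adjusted p = 0.0042). None of the 6 BAG genes was called, with 0 at an unadjusted p under 0.05 by limma, and their responses lay between -0.34 (BAG3, which links Hsp70 to selective autophagy) and 0.11, with BAG1 at 0.03. HSPB1 was at 0.01 ± 0.15.

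**Figure D1:**
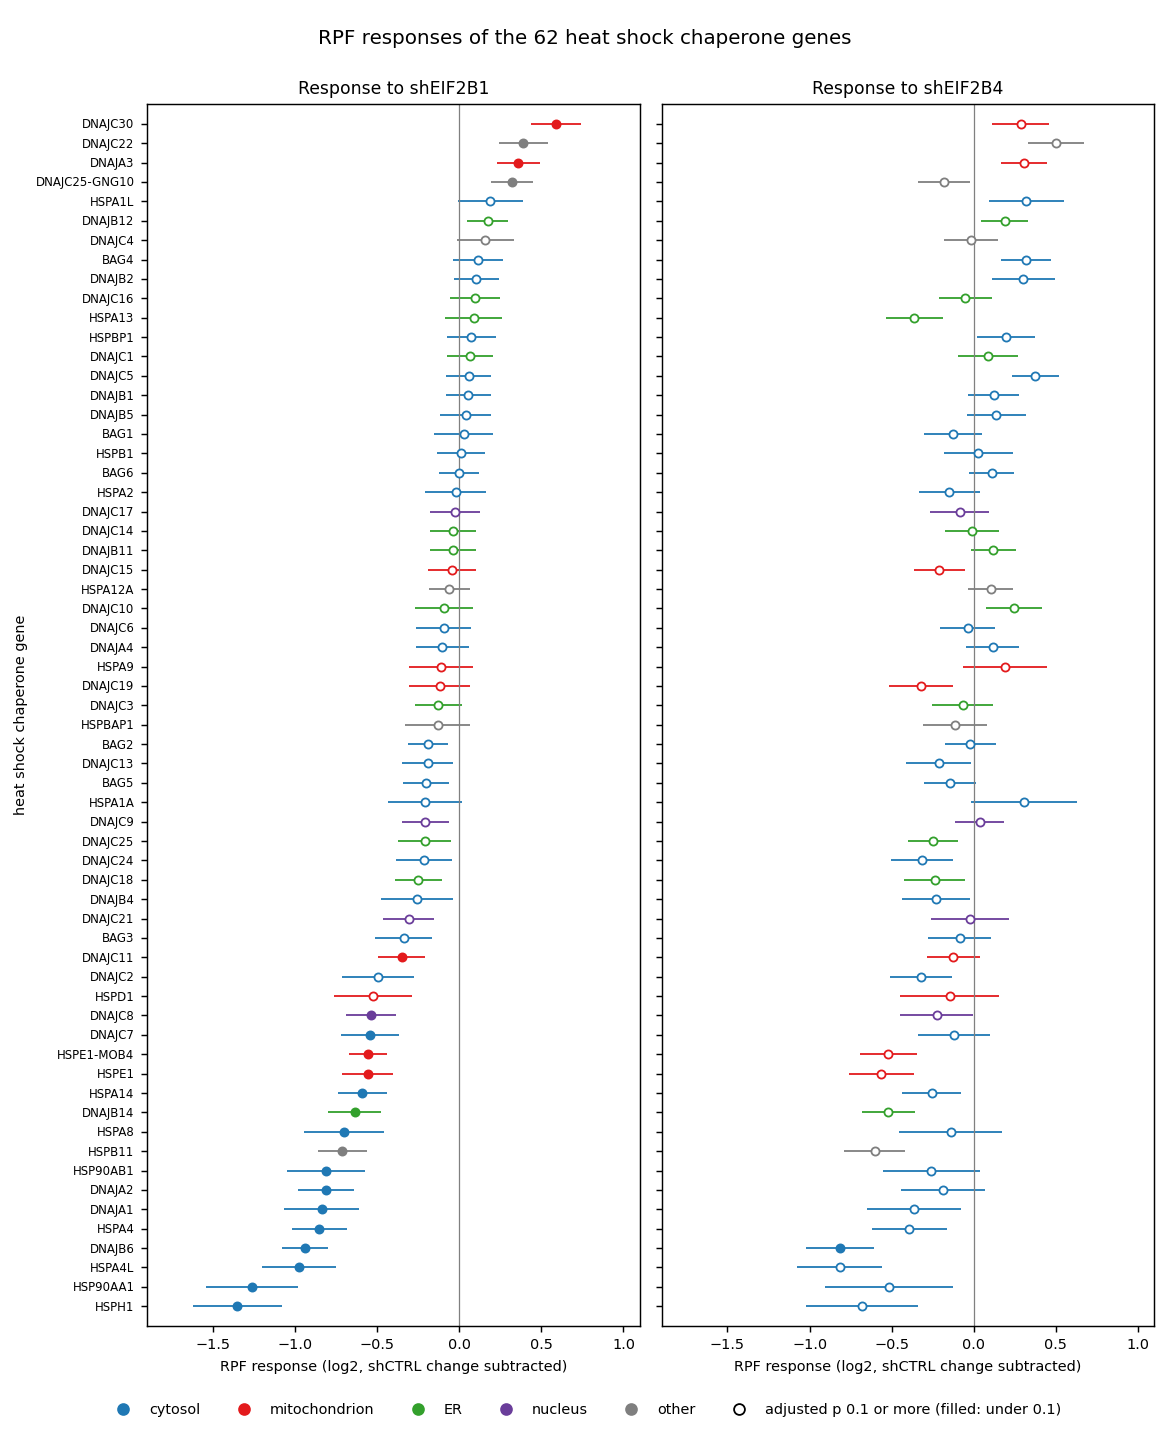
RPF response (log2, change of shCTRL subtracted) of the 62 members to shEIF2B1 (left) and shEIF2B4 (right), ordered by the response to shEIF2B1. Points are fitted responses and bars their standard errors, colours give the compartment, and filled points have a limma adjusted p under 0.1. After shEIF2B1, 17 filled points lie below 0 and 4 above it, and after shEIF2B4 DNAJB6 alone is filled.

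Among the Hsp110 exchange factors, HSPH1 is the stress-inducible one. Its log2 RPF values over replicates 1 to 4 were 9.13, 10.47, 9.33 and 10.58 in shEIF2B1 -DOX and 7.93, 8.67, 8.45 and 9.20 in shEIF2B1 +DOX. In shCTRL they were 7.79, 9.17, 8.68 and 9.94 without DOX and 8.67, 8.42, 8.59 and 10.04 with it. Within each week the induced shEIF2B1 library lay below its uninduced partner, though the ranges of these groups overlapped narrowly, and the shCTRL groups overlapped throughout. The response was -1.35 ± 0.27 (log2, SE; adjusted p = 0.0032) and -1.11 without replicate 1. HSPA4, which serves the constitutive Hsc70, fell by 0.85 on the log2 scale (SE 0.17, adjusted p = 0.0029), and HSPA4L fell by 0.98 (SE 0.23, adjusted p = 0.0073). HSPA4 was lower than its uninduced partner in 4 of 4 shEIF2B1 pairs, from 10.51, 11.57, 10.54 and 11.46 to 9.85, 10.51, 10.09 and 10.70. HSPBP1, an exchange factor unrelated to Hsp110, was at 0.07 and not called.

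Hsp90 was lower in both its forms. HSP90AA1, the stress-inducible form, gave log2 RPF values of 13.25, 14.60, 13.42 and 14.53 in shEIF2B1 -DOX and 12.12, 12.77, 12.51 and 13.11 in shEIF2B1 +DOX, so every induced library lay below every uninduced one. In shCTRL the 2 groups overlapped, at 12.25, 13.49, 12.94 and 13.93 without DOX and 13.07, 12.56, 12.77 and 13.95 with it. The response was -1.26 ± 0.28 (adjusted p = 0.0059), and -1.03 without replicate 1. HSP90AB1, the constitutive form, went from 12.55, 13.15, 12.69 and 13.30 to 11.80, 11.85, 12.09 and 12.02 in shEIF2B1, also without overlap, with a response of -0.81 ± 0.24 (adjusted p = 0.024). That call was lost without replicate 4 (adjusted p = 0.113).

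Hsp70 itself was split. HSPA8 went from 13.57, 13.98, 13.76 and 14.28 to 12.71, 12.79, 12.78 and 13.05 in shEIF2B1, without overlap, but it also moved in shCTRL, from 12.58, 13.04, 13.52 and 14.09 to 13.01, 12.34, 12.76 and 13.67. Its response of -0.70 ± 0.24 passed the threshold (adjusted p = 0.052) and was lost without replicate 1 (adjusted p = 0.19) or replicate 4 (adjusted p = 0.138). HSPA14, which works with DNAJC2 at the ribosome exit, fell by 0.59 (adjusted p = 0.01), while DNAJC2 had a response of -0.50 (adjusted p = 0.116). The stress-inducible HSPA1A had a response of -0.21 ± 0.23 (adjusted p = 0.55). Its CDS shares 96.0% of its 28-base windows with HSPA1B, so reads of the pair cannot be assigned with certainty.

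**Figure D2:**
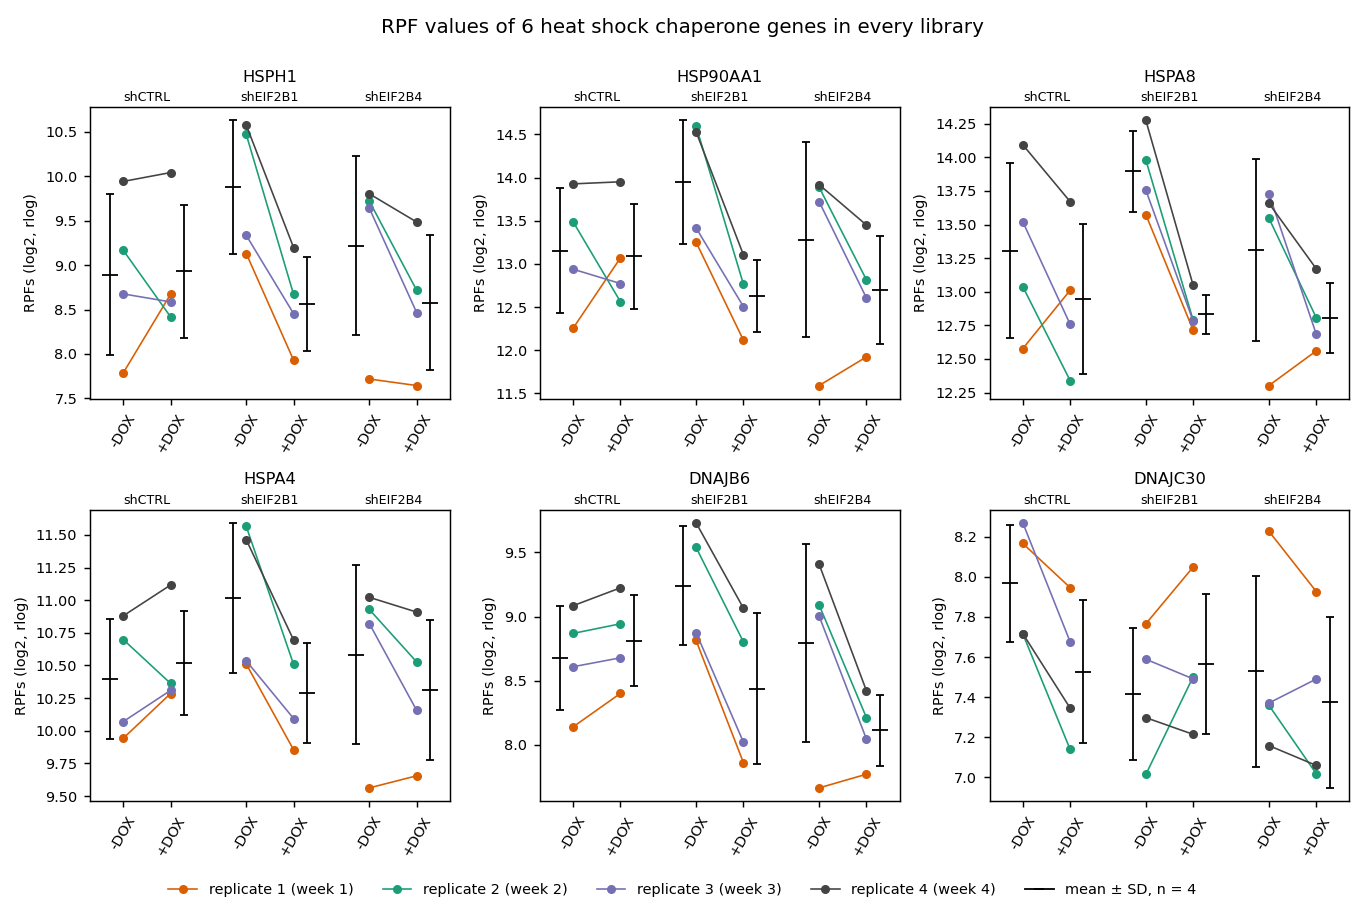
Log2 RPF values of HSPH1, HSP90AA1, HSPA8, HSPA4, DNAJB6 and DNAJC30 in each of the 24 RPF libraries, with lines joining the -DOX and +DOX libraries of a line in the same week, and bars giving the mean ± SD (n = 4). In shEIF2B1 the lines of the first 5 genes slope down in all 4 weeks, whereas for these 5 genes replicate 1 of shCTRL slopes up and replicate 1 of shEIF2B4 starts lowest in its group.

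Among J-domain proteins, DNAJB6, which suppresses aggregation of polyglutamine proteins, had the smallest adjusted p of any member. Its log2 RPF values went from 8.81, 9.54, 8.87 and 9.73 to 7.86, 8.80, 8.02 and 9.07 in shEIF2B1, a fall in each pair, and in shCTRL from 8.14, 8.87, 8.61 and 9.08 to 8.40, 8.94, 8.68 and 9.22. The response was -0.94 ± 0.14 (adjusted p = 0.00023), and -0.85 without replicate 1. DNAJA1 and DNAJA2, the class A partners of Hsp70, fell by 0.84 (adjusted p = 0.016) and 0.81 (adjusted p = 0.004). The inducible Hsp40 DNAJB1 had a response of 0.06 ± 0.14 and the ER-lumen inhibitor of PERK, DNAJC3 (p58IPK), one of -0.13 ± 0.14, neither of them called. Within shEIF2B1 DNAJB1 fell from 9.79, 9.44, 9.80 and 9.67 to 9.67, 9.29, 9.33 and 9.14, but it fell in each week of shCTRL as well. DNAJC7, a co-chaperone with TPR repeats, and DNAJC8 of the spliceosome fell by 0.54 each, and the call of DNAJC7 was lost without replicate 1 or 4.

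The 4 members with higher RPFs after shEIF2B1 were smaller in their response and less secure. DNAJC30, a J-domain protein of the mitochondrial inner membrane, went from 7.77, 7.01, 7.59 and 7.30 to 8.05, 7.50, 7.49 and 7.21 in shEIF2B1. In shCTRL it went from 8.17, 7.72, 8.27 and 7.72 to 7.95, 7.14, 7.68 and 7.35. Its response of 0.59 ± 0.15 (adjusted p = 0.013, and 0.046 without replicate 1) therefore rested on the decrease in shCTRL in all 4 weeks, as it rose within shEIF2B1 in weeks 1 and 2 only. DNAJA3 (TID1, a mitochondrial J-domain protein) at 0.36, of which the mean change within shEIF2B1 was 0.13 and that within shCTRL -0.23, the membrane protein DNAJC22 at 0.39 and DNAJC25-GNG10 at 0.32 lost their calls without replicate 1. DNAJC25-GNG10 is a readthrough gene sharing 95.1% of its 28-base windows with other genes, mainly DNAJC25, so its value is uncertain.

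In mitochondria HSPE1 fell by 0.56 (SE 0.15, adjusted p = 0.017), lost without replicate 3 (adjusted p = 0.138), and its partner HSPD1 had a response of -0.53 ± 0.24 (adjusted p = 0.13). HSPE1-MOB4 fell by 0.56, but 88.6% of its windows are shared with HSPE1 or MOB4. The import motor Hsp70 HSPA9 had a response of -0.11 ± 0.19 and DNAJC11 one of -0.35 that was lost without replicate 1, 3 or 4. As the listed HSPA9 transcript has only 126 coding bases in GENCODE v29, its response and its GC3 are uncertain too.

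The uninduced shEIF2B1 libraries were above those of shCTRL for the members called lower. This difference is part of the value by which the 17 were chosen, so it is given as a description. For these 17 genes, the median log2 RPF difference between shEIF2B1 and shCTRL, both without DOX, was 0.63, 0.67, 0.36 and 0.51 in weeks 1 to 4, above 0 for 16 or 17 of the 17 genes in each. With DOX it was -0.33, 0.20, -0.13 and -0.36. Over all 62 members, which were not chosen by it, the uninduced medians were 0.22, 0.39, 0.14 and 0.23, and over the 41 members not called 0.07, 0.24, 0.06 and 0.14. Over all genes these medians lay between -0.01 and 0.02. The own-line fall in shEIF2B1 thus began above the control in every week and ended below it in weeks 1, 3 and 4. The part of this uninduced difference in the responses was not tested.

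**Figure D3:**
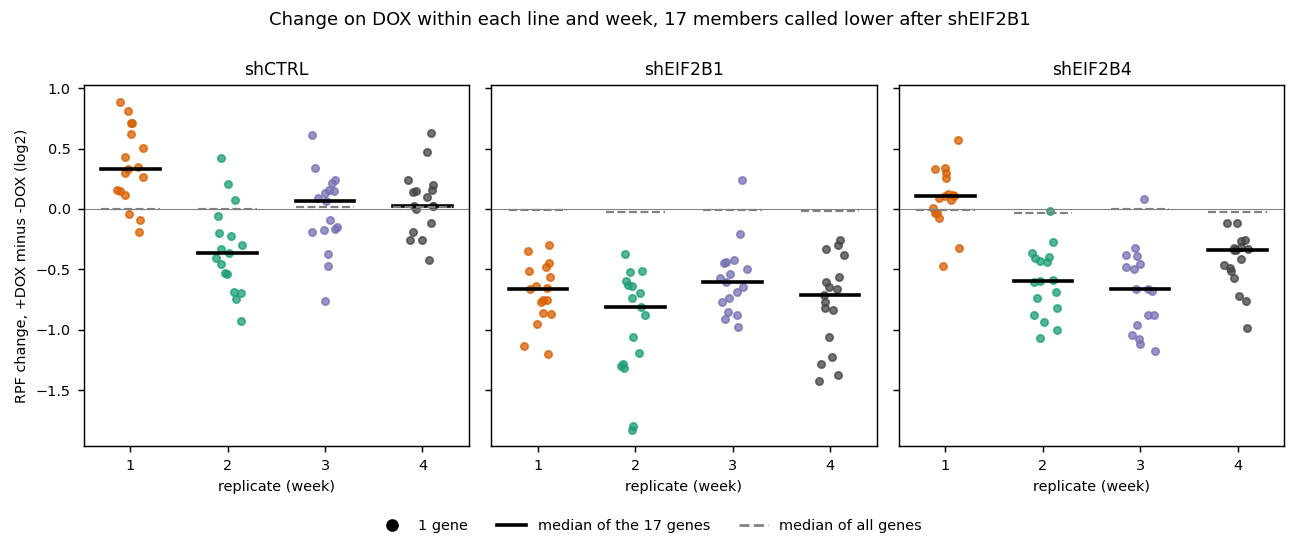
Change in log2 RPF from -DOX to +DOX within each line and week for the 17 members called lower after shEIF2B1, with 1 point per gene, thick lines for their medians and dashed lines for the median of all genes. The medians in shEIF2B1 lie between -0.81 and -0.60 in every week, those in shCTRL between -0.36 and 0.33, and replicate 1 of shEIF2B4 is above 0.

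Week by week, the same 17 genes had median own-line changes of -0.66, -0.81, -0.60 and -0.71 in shEIF2B1, with at least 16 of 17 genes below 0 each time. In shCTRL the medians were 0.33, -0.36, 0.07 and 0.03, so the control changed in opposite directions in weeks 1 and 2. In shEIF2B4 they were 0.11, -0.60, -0.66 and -0.34. The genes were chosen by their response to shEIF2B1, and among these values only the own-line changes of shEIF2B4 did not enter that choice. In week 1 of shEIF2B4, 5 of the 17 genes were below 0, and in weeks 2, 3 and 4 the numbers were 17, 16 and 17.

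After shEIF2B4, with the same shCTRL libraries as controls, 1 member was lower and 0 were higher in RPFs (limma, 9 of 62 at an unadjusted p under 0.05), against 2.75% of all genes called, 0.87% lower and 1.88% higher. It was DNAJB6, whose values went from 7.66, 9.09, 9.004 and 9.41 to 7.77, 8.21, 8.04 and 8.42. The response was -0.82 ± 0.21 (adjusted p = 0.06) and -1.04 without replicate 1, the week in which the line itself did not decrease. That call was lost without replicate 2, 3 or 4 (adjusted p = 0.322, 0.326 and 0.495). HSPA4L (-0.82, adjusted p = 0.136), HSPH1 (-0.68, adjusted p = 0.345) and HSP90AA1 (-0.52, adjusted p = 0.537) were not called, and HSPA8 stood at -0.14.

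Leaving out replicate 1 altered the count in this comparison more than any of the other settings tried. It gave 7 lower and 2 higher members, against 8.17% and 6.33% of all genes. The lower ones were DNAJB6, HSPA4L, HSPB11, DNAJB14, HSPE1, HSPE1-MOB4 and the ER Hsp70 relative HSPA13, and the higher ones were DNAJC22 and HSPA1L. Of these, HSPA13, HSPA1L and DNAJB14 were called mainly through shCTRL. DNAJB14 rose within shCTRL in each of weeks 2 to 4. Within shEIF2B4 its log2 RPF values in those weeks went from 6.75, 6.35 and 7.07 to 6.74, 6.43 and 6.65, a clear fall in week 4 only. HSPA13 changed by 0.25, 0.22 and -0.01 within shEIF2B4 in weeks 2 to 4 but by 0.36, 0.98 and 0.60 within shCTRL, and HSPA1L by -0.04, -0.03 and 0.29 within shEIF2B4 but by -0.35, -0.83 and -0.38 within shCTRL. HSPH1 (adjusted p = 0.147) and HSP90AA1 (adjusted p = 0.159) still were not called.

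The difference between the 2 knockdown responses was tested directly and passed the threshold for 0 of 62 members in RPFs (limma, 5 at an unadjusted p under 0.05), with 0.00897% of all genes called. For HSPH1 it was -0.67 with a 95% interval from -1.35 to 0.00032, for HSP90AA1 -0.74 (-1.49 to 0.0034) and for DNAJB6 -0.12 (-0.55 to 0.30). In total RNA it passed for 0 of 64 (limma, 6 at an unadjusted p under 0.05), with 0.1% of all genes called. The calls for Hsp90 and Hsp110 after shEIF2B1 alone are thus not shown to separate the knockdowns.

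In total RNA the members were called about as often as all genes. After shEIF2B1, 2 of 64 members were higher (3.12%) and 0 lower, with 3.47% of all genes called (2.34% higher, 1.13% lower), and after shEIF2B4 again 2 were higher and 0 lower, with 5.4% of all genes called (3.78% higher, 1.62% lower). Both times they were DNAJC10 (ERdj5, a reductase of the ER lumen) and DNAJC1 (ERdj1, of the ER membrane), which lie outside the cytosolic and mitochondrial machinery.

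DNAJC10 total RNA was 10.54, 10.54, 10.28 and 10.60 in shCTRL -DOX and 10.56, 10.39, 10.65 and 10.72 in shCTRL +DOX. In shEIF2B4 it went from 10.69, 10.51, 10.14 and 10.56 to 11.41, 11.35, 11.43 and 11.44, without overlap. In shEIF2B1 it went from 10.41, 10.61, 10.23 and 10.47 to 11.23, 10.68, 11.32 and 11.31, again without overlap, but with replicate 2 far below the other induced libraries. The responses were 0.84 ± 0.13 after shEIF2B4 (adjusted p = 0.00064) and 0.62 ± 0.17 after shEIF2B1 (adjusted p = 0.066), the second lost without replicate 1, 3 or 4 (adjusted p = 0.434, 0.139 and 0.347) and without the block (adjusted p = 0.112).

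DNAJC1 total RNA went from 8.11, 8.24, 8.09 and 8.33 to 8.77, 8.90, 8.996 and 8.92 in shEIF2B1 and from 8.06, 8.17, 8.09 and 8.23 to 8.64, 8.75, 8.81 and 8.64 in shEIF2B4. The induced libraries of both knockdowns lay above every shCTRL library, whose highest value was 8.56. The responses were 0.56 ± 0.11 (adjusted p = 0.0092) and 0.43 ± 0.11 (adjusted p = 0.036). The second was lost without replicate 1 (adjusted p = 0.121), replicate 2 (0.197) or replicate 3 (0.127). In RPFs neither gene was called in either knockdown, with responses of -0.09 and 0.24 for DNAJC10 and of 0.06 and 0.09 for DNAJC1 after shEIF2B1 and shEIF2B4. The RPFs of DNAJC10 cover only the 996 coding bases of its listed transcript, so those on other transcripts of the gene may be missed.

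**Figure D4:**
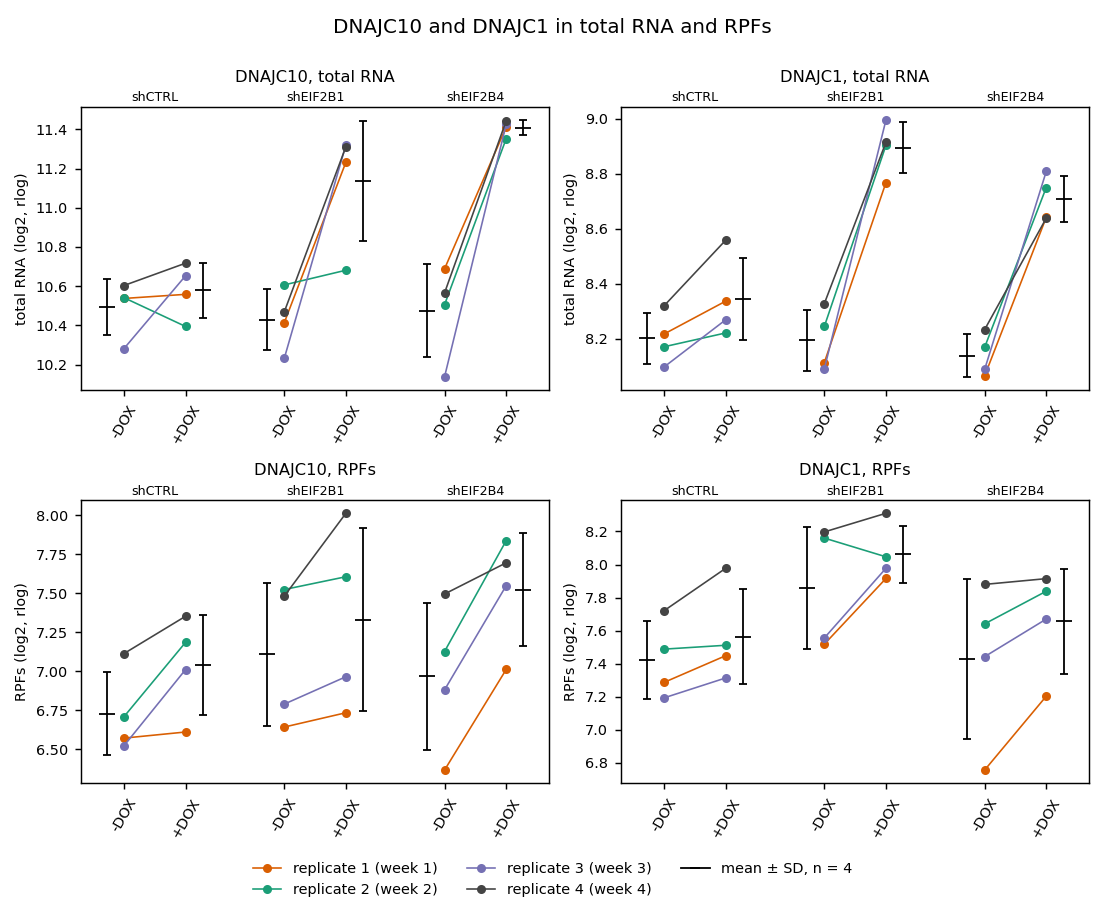
DNAJC10 and DNAJC1 in total RNA (top) and RPFs (bottom), log2 values per library with lines joining the libraries of a line in the same week and bars for the mean ± SD (n = 4). In total RNA the induced knockdown libraries stand above the uninduced ones, except that DNAJC10 in replicate 2 of shEIF2B1 barely moved, whereas in RPFs the groups overlap.

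The cytosolic genes that fell in RPFs were not called in total RNA. HSP90AA1 total RNA went from 14.41, 14.84, 14.32 and 14.61 to 13.71, 13.43, 13.68 and 13.67 in shEIF2B1, without overlap, while shCTRL went from 14.04, 14.27, 14.26 and 14.65 to 14.50, 13.60, 13.79 and 14.49. The response was -0.71 ± 0.23 (adjusted p = 0.13). HSPH1 had one of -0.37 ± 0.18 (adjusted p = 0.34), HSPA8 one of -0.35 and DNAJB6 one of -0.26. The 2 ER genes left out by symbol, given here as reference values, were not called after shEIF2B1 in total RNA (HSPA5 0.34, DNAJB9 0.52), and DNAJB9 was higher after shEIF2B4 (0.78, adjusted p = 0.015). The median log2 total RNA response over the members was -0.07 after shEIF2B1 and 0.04 after shEIF2B4, and within 0.004 of 0 over all genes. Over the 32 cytosolic members the median after shEIF2B1 was -0.13. Of these, 28 lay below 0 (87.5%, against 51.1% of all genes) and 6 had an unadjusted p under 0.05 (limma). Over the 11 ER members the median after shEIF2B1 was 0.16, with 7 above 0. After shEIF2B4, 20 of the 32 cytosolic members lay below 0 (median -0.03).

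Translation efficiency (TE) is the log2 RPF value less the log2 value of the matching total RNA library, computed for the 61 members in both tables. After shEIF2B1, 11 members had lower TE (18%) and 1 had higher TE, when 7.1% of all genes were called, 4.13% lower and 2.97% higher. The 11 were HSPH1, HSPE1-MOB4, DNAJC10, DNAJA2, DNAJB6, DNAJC18 (an ER-membrane J-domain protein), HSPA4, HSP90AA1, DNAJA1, DNAJC1 and DNAJC7, and the higher one was DNAJC30. Mean log2 RPFs of DNAJC18 did not fall within shEIF2B1 (6.10 to 6.26), but they rose more within shCTRL (5.87 to 6.28). HSPH1 TE went from -1.72, -0.62, -1.54 and -0.56 to -2.73, -1.57, -2.32 and -1.48 in shEIF2B1, lower in each pair although the groups overlapped. Its response was -0.98 ± 0.18 (adjusted p = 0.018). DNAJC10 and DNAJC1 had lower TE (-0.71, adjusted p = 0.091, and -0.49, adjusted p = 0.06) with higher total RNA, while neither was called in RPFs. Mean log2 RPFs of DNAJC10 rose from 7.11 to 7.33 within shEIF2B1 but also from 6.73 to 7.04 within shCTRL. Those of DNAJC1 rose from 7.86 to 8.06 and from 7.42 to 7.56.

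These TE calls depended on single replicates. Without replicate 1 or replicate 4, 0 of 61 members were called (limma, 20 and 13 at an unadjusted p under 0.05), when 0% and 0.185% of all genes were. Without replicate 3, HSPH1 alone was called, with 0.397% of all genes, and a fit with no block called 0 members (limma, 2 at an unadjusted p under 0.05) and 0% of all genes. The responses themselves moved less, with HSPH1 at -0.80 and DNAJB6 at -0.61 without replicate 1. After shEIF2B4, 0 of 61 were called (limma, 15 at an unadjusted p under 0.05), against 0.0923% of all genes, and without replicate 1 there were 8 lower and 2 higher, against 7.81% and 5.27% of all genes. With all replicates the TE response to shEIF2B4 was -0.57 for HSPH1 (adjusted p = 0.244), -0.54 for DNAJB6 (adjusted p = 0.216) and -0.60 for DNAJC10 (adjusted p = 0.202).

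On DOX alone, in shCTRL with all 4 replicates, the share of members called was close to that of all genes in RPFs. Of 62 members 3 were higher (4.84%: HSPA13, DNAJB14 and DNAJC18, all of the ER) and 3 lower (4.84%: DNAJC30, the histone chaperone DNAJC9 and DNAJB1), with 9.85% of all genes called (5.23% higher, 4.62% lower). DNAJB1 went from 9.92, 9.47, 10.00 and 9.81 to 9.73, 9.04, 9.48 and 9.48, a change of -0.37 ± 0.09 (limma, adjusted p = 0.05), lower in 4 of 4 weeks although the groups overlapped. HSPA13 rose by 0.47 in shCTRL, from 8.82, 9.16, 8.51 and 9.13 to 8.77, 9.52, 9.49 and 9.73. In total RNA HSPE1, HSPE1-MOB4 and DNAJC9 were lower and BAG6, which sorts tail-anchored proteins, was higher, with 4.44% of all genes called (2.27% higher, 2.18% lower). BAG6 went from 8.09, 7.99, 8.11 and 7.70 to 8.16, 8.34, 8.45 and 8.01, higher in each pair, and HSPE1 from 12.00, 12.27, 12.85 and 12.67 to 12.07, 11.76, 12.08 and 12.16, higher in the first pair and lower in the others. Without replicate 1 the counts were 5 higher and 16 lower of 62 in RPFs, against 16.6% and 15.1% of all genes. In total RNA they were 4 and 15 of 64, against 10.1% and 10.4%. More members were thus lower than higher there, unlike all genes. Without any other single replicate 0 members were called in shCTRL (limma, 7 to 12 RPF genes and 4 to 13 total RNA genes at an unadjusted p under 0.05). The share of all genes called without replicate 2, 3 or 4 was 0.0359%, 0.0269% and 0.0359% for RPFs, compared with 1.39%, 0.0251% and 0.1% for total RNA.

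Genes around the chaperones were counted from lists chosen by their function. Of 19 co-chaperones of Hsp70 and Hsp90 with RPFs, 8 were lower and 0 higher after shEIF2B1, where 15.3% of all genes were lower and 12% higher. They included the p23 protein PTGES3 (-0.91, adjusted p = 0.0093), CHORDC1 (-0.92), the Hsp90 activator AHSA1 (-0.54, adjusted p = 0.02) and STIP1, which bridges Hsp70 and Hsp90 (-0.59, adjusted p = 0.069). CDC37, which brings kinases to Hsp90, was at -0.13 and not called. Of 3 heat shock factor genes HSF1 was higher (0.40, adjusted p = 0.036) and the negative regulator HSBP1 lower (-0.35, adjusted p = 0.096). Of 8 mitochondrial chaperones and proteases CLPX was lower (-0.62) and HSCB higher (0.38), and of 5 HSF1 targets outside these families DEDD2 and SERPINH1 were higher and 0 lower, counts too small to set against those shares. In total RNA, where 3.47% and 5.4% of all genes were called, 0 genes of each of the 4 lists were called after either knockdown (limma, 0 to 2 per list at an unadjusted p under 0.05).

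The RPF response varied with codon ending among the members as it did among all genes. Across the 61 members with a CDS, Spearman's rho between GC3 and the response to shEIF2B1 was 0.61 (0.70 without replicate 1), against 0.65 across 10788 genes. For shEIF2B4, whose response uses the same shCTRL libraries, it was 0.67 against 0.58. For the RPF change of shCTRL on DOX, which both responses subtract, rho was -0.49 across the members against -0.29 across all genes. The part of this control change in the rho of the responses was not tested. These are descriptions across genes that share libraries and base composition, and genes are not independent replicates. In total RNA rho was 0.06 after shEIF2B1 and -0.28 after shEIF2B4 (63 members), and for TE it was 0.67 and 0.79 (60 members).

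The members called lower had a median GC3 of 38.8% (17 genes), those called higher 72.3% (4 genes) and the others 53.6% (40 genes), while all genes of the RPF table had 59.7%. In the range from 20.9% to 39.3%, 10 of 20 members were lower and 0 higher, and of the 1733 genes of the table in that range 45.4% were lower. Between 39.5% and 59.6%, 6 of 21 were lower, against 20.2% of all genes there. Above that, up to 92.2%, 1 of 20 members was lower and 4 were higher, against 1.97% and 21.4% of all genes there. The shares of members called thus lay near those of all genes with the same GC3. The median log2 response of the members in these 3 ranges was -0.54, -0.13 and 0.05, and that of all genes -0.36, -0.14 and 0.16. Single members lay on both sides of these medians. In the lowest range HSPH1 (35.1%) was at -1.35 and DNAJC10 (31.9%) at -0.09, and in the highest DNAJC30 (77%) was at 0.59 and HSPA1A at -0.21.

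The heat shock element printed above was found in 5 of the 15 members with lower RPFs and a promoter entry (HSPA8, HSP90AA1, HSP90AB1, DNAJA1 and DNAJB6), in 0 of 3 with higher RPFs, and in 1 of 38 of the others (HSPD1). Over all genes it was in 9 of the 1414 lower ones (0.636%), 0.189% of those higher and 0.442% of the rest. The 9 include the 5 members just named. HSPH1, HSPA4 and HSPA4L had no match to these letters in the window. None of the 6 members with the element was called in total RNA after either knockdown.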

How the data were processed

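The authors deposited regularized log2 values (DESeq2 rlog) per library. Reads were deduplicated, total RNA was quantified with Bowtie2 and RSEM on GENCODE v38 protein-coding transcripts, and RPFs, after removal of rRNA, tRNA and mitochondrial reads, were counted over the CDS of each gene's most expressed transcript. Replicate 3 joins 2 sequencing runs. No counts were used, so the depth is unknown.

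Here limma (3.58.1, R 4.3.3) was fitted to all genes with the mean-variance trend and the terms week, shRNA, DOX and their interaction, on the 16 libraries of the 2 lines concerned, the 8 of shCTRL, or all 24 for the difference of the responses. P-values were adjusted by Benjamini-Hochberg over all genes. Libraries with the same replicate number share a week, which the authors' supplementary description of their fits also models as a batch, and their deviations correlated with a mean r of 0.559 in RPFs, 0.183 in total RNA and 0.538 in TE. Alternatives were no block, all 24 libraries, library centring, a filter on low values, no trend, a threshold of 0.05 and leaving out each replicate. Fits were tested on simulated data. Members, lists and tests were chosen with earlier results of these data known. Named genes were a panel of core chaperones, the 5 largest RPF rises and falls after shEIF2B1 and members called elsewhere, and others were named after their values were seen.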

Additional observations from a re-analysis of the deposited data

Results flagged for a closer look

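Of 84 groups of 4 libraries examined for the core chaperones, DNAJC10 and DNAJC1, 11 had a lowest or highest library set apart from the others by a gap, as a share of the group's range, above Dixon's 95% critical value. Chance sets apart about 1 in 20 groups, and values of different genes in 1 library are not independent. In RPFs, 6 of the 11 were replicate 1 of shEIF2B4 -DOX, the lowest of its group: HSPH1 at 7.7174, HSPA4 at 9.5626, HSPA9 at 9.7325, HSP90AB1 at 11.426, HSP90AA1 at 11.591 and HSPA8 at 12.302 (log2 RPF). The total RNA of the same lysate was also lowest for HSP90AA1, at 13.816. Replicate 4 of shCTRL +DOX was the highest of its group for HSPH1, at 10.042, and for HSPA4, at 11.116. In total RNA of shEIF2B1 +DOX, replicate 2 was the lowest for DNAJC10, at 10.681, and for HSP90AA1, at 13.434.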

How the results depend on the processing

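The counts of members called depend on the pairing by week. Without the replicate block, 0 members were called for the RPF responses to shEIF2B1 (main count 21) and to shEIF2B4 (main count 1), 1 for the total RNA response to shEIF2B1 (main count 2), 0 for the TE response to shEIF2B1 (main count 12) and 0 for the changes of shCTRL on DOX in RPFs (main count 6) and in total RNA (main count 4). Fitting all 24 libraries together gave 4 members for RPFs after shEIF2B4, 1 for TE after shEIF2B1 and 1 for TE after shEIF2B4 (main count 0). At a threshold of 0.05 the counts were 0 for RPFs after shEIF2B4, 1 for total RNA after shEIF2B1, 3 for TE after shEIF2B1, and for shCTRL 1 in RPFs and 0 in total RNA. Dropping the mean-variance trend gave 2 for shCTRL in total RNA. Leaving out 1 replicate gave 14 to 21 members for RPFs after shEIF2B1, 0 to 9 for RPFs after shEIF2B4, 1 to 3 and 1 to 2 for total RNA after shEIF2B1 and shEIF2B4, 0 to 13 and 0 to 10 for TE after shEIF2B1 and shEIF2B4, and 0 to 21 and 0 to 19 for shCTRL in RPFs and in total RNA. The highest of these came without replicate 1 for RPFs and TE after shEIF2B4 and for shCTRL. The RPF count after shEIF2B1 was 14 to 21 under the settings that kept the block, no called value changed sign under the settings tried, and the cause of these shifts was not tested. With 4 replicates and no counts, the depth behind low values cannot be judged.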
